A study of Mus musculus with 2 samples.

Results

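The genes of MHC class II presentation were followed in dorsal root ganglion (DRG) neurons, the sensory cell bodies that carry touch, pain and itch. Members were the 10 genes H2-Aa, H2-Ab1, H2-Eb1, H2-DMa, H2-DMb1, H2-DMb2, H2-Ob, Cd74, Ciita and Cd86. All non-control probes that carry one of these names in the scanner files were taken, which gave 22 of 56601 probes and 10 of 37008 gene names. RNA came from mice of the C57BL/6 strain that carry the AND transgene, a T cell receptor of CD4 T cells. One sample was heterozygous for Dock8 (Dock8+/-, labelled with a low level of the itch cytokine IL-31) and the other lacked Dock8 (Dock8-/-, labelled with a high level). Each genotype had 1 array, so no test, standard error or p-value between genotypes exists, and each difference is between 2 arrays. Age, sex and the number of animals behind each RNA sample are not given in the sources used here.

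MHC class II molecules are pairs of an alpha and a beta chain that display peptides from the endosomes of an antigen-presenting cell to CD4 T cells. In C57BL/6 mice the pair is I-A, made from H2-Aa and H2-Ab1, whereas the I-E pair is missing because the gene for its alpha chain, H2-Ea, is defective. The invariant chain Cd74 fills the groove of a new pair, H2-DM then exchanges its remnant for a peptide, and H2-O restrains H2-DM. CIITA, recruited by factors bound to the X and Y boxes of class II promoters, switches class II genes on in dendritic cells, B cells and activated macrophages. Neurons are not known as a main site of class II, and resident macrophages of the ganglion carry it.

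The promoter layout is shown because class II genes are known to be switched on through it. RefSeq promoter windows (GRCm38.p6, from 250 bases before to 50 after a gene's start) were at hand for 6 of the 10 members: H2-Aa, H2-Eb1, H2-DMa, H2-DMb1, H2-DMb2 and H2-Ob. The stretches are written 5′ to 3′ on the gene's own strand. Capitals mark letters that match the X box consensus and the Y box core CCAAT, which reads ATTGG here.
H2-Aa: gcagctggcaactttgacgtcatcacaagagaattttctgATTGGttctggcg
H2-Eb1: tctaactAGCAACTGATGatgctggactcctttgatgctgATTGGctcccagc
H2-DMa: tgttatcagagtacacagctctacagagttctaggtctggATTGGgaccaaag
H2-DMb1: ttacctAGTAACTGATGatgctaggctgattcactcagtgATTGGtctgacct
H2-DMb2: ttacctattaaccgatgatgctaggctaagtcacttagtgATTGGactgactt
H2-Ob: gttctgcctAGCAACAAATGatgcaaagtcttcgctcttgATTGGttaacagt

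These stretches lie at chr17:34287859-34287911 on the minus strand for H2-Aa, and on the plus strand at chr17:34305768-34305820 for H2-Eb1, chr17:34125280-34125332 for H2-DMa, chr17:34153090-34153142 for H2-DMb1, chr17:34145119-34145171 for H2-DMb2 and chr17:34238808-34238860 for H2-Ob (GRCm38.p6). A match to the X box consensus was found in 3 of the 6 members, H2-Eb1, H2-DMb1 and H2-Ob, against 3.09% of 32851 windows of the table searched on both strands. In these 3 the X box started at most 40 bases before a Y box, a pairing found in 0.521% of all windows. A Y box core was found in 6 of 6 members and in 37.4% of windows. That of H2-DMa starts at -198 with no X box match, whereas those of the other 5 stretches start between -90 and -48. The H2-Aa stretch holds TGACGTCA, the letters of the X2 box to which CREB binds, which were searched for after the stretch had been read and stand in 1.79% of windows. The interferon-gamma element TTCNNNGAA was found in H2-DMb2 alone (8.3% of windows), and the interferon-stimulated response element (ISRE) in 0 members (3.44% of windows). Such matches describe letters and do not show binding.

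The pair of probes printed next reads the 2 chains of I-A, whose differences were unequal. Each is 60 bases long, is written 5′ to 3′ as on the array and has at least 1 forward reading frame free of stop codons. Their place in the coding sequence was not checked against a protein table.
H2-Aa probe: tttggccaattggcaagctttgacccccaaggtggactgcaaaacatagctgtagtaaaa
H2-Ab1 probe: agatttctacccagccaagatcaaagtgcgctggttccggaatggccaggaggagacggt
The H2-Aa probe lies at chr17:34421285-34421344 on the minus strand and this H2-Ab1 probe at chr17:34404357-34404416 on the plus strand, on the mm9 build of the files.

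Values are the processed intensity of a spot, a brightness on a linear scale, and each member probe had 1 spot per array. The Dock8-/- array was dimmer as a whole, with a 75th percentile of 145.6 against 303.8, and 50.7% against 56.9% of all probes were well above background, the scanner software's flag for a readable spot. Differences are therefore given after each array's 75th percentile was subtracted on the log2 scale. Neuronal markers read brightly on both arrays, and all 14 of that list were measured, among them Uchl1 at an intensity of 155552 in Dock8+/- and 80763 in Dock8-/-. The spread of repeated spots was small, with an SD of 0.06 for a log2 difference of single spots, and it holds no difference between animals. The scanner error model gave an SD of 0.20 to 0.27 for the member probes read on both arrays.

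Every member probe was dimmer on the Dock8-/- array before scaling, 22 of 22, as were 84.9% of all 56601 probes. After scaling 17 of 22 were lower, against 32.9% of all probes. Spots dim on both arrays enter that share, and scaling can turn them higher, as with the second H2-DMb1 probe (0.98). The share is therefore no close match for members, most of whose probes were readable, and of genes measured on both arrays 48.2% were below 0. Readable spots numbered 15 in Dock8+/- and 10 in Dock8-/-, and 7 probes were readable in neither. Thus 5 were read on the Dock8+/- array only, a pattern of 7.89% of all 56601 probes. All 10 read on both arrays were at least 2-fold lower in the Dock8-/- sample, against 7.06% of 27733 probes read on both arrays. Unscaled intensities of these 10 were 5.48-fold to 48.8-fold lower. The 5 probes that were higher after scaling were readable in neither sample.

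**Figure D1:**
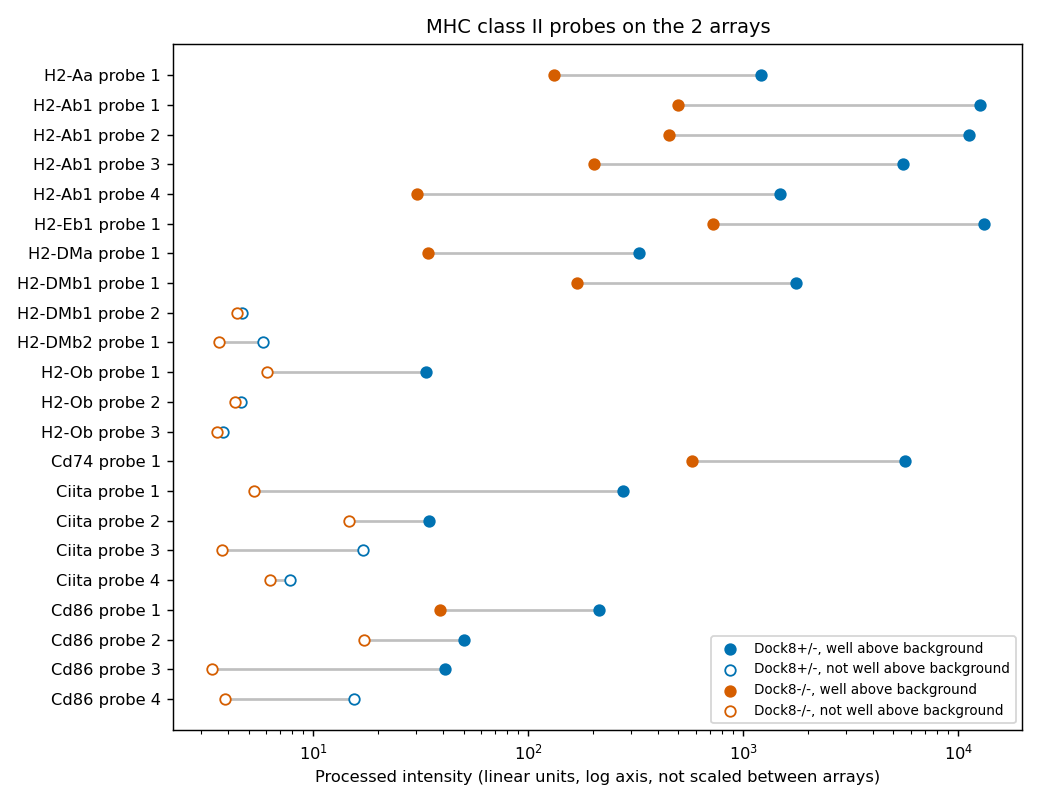
Processed intensity of the 22 MHC class II probes on the Dock8+/- array (blue) and the Dock8-/- array (orange), 1 spot per probe and array, on a log axis without scaling between arrays. Filled points are well above background (15 blue and 10 orange), and in 22 of 22 rows the orange point lies left of the blue one.

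Of the classical chains, H2-Ab1 and H2-Eb1 had the lowest gene values among the members, whereas H2-Aa lay with the genes of peptide loading. H2-Ab1, the beta chain of I-A, had 4 probes, all well above background on both arrays. Its brightest probe, at chr17:34406296-34406355, read 12676 in Dock8+/- and 499.9 in Dock8-/-. The scaled log2 difference was -3.60 with an error-model SD of 0.20, or 12.1-fold lower. A further probe that shares 51 bases with it, of which 1 differs, read 11178 and 450.1 and gave -3.57, so the pair are not independent readings. The probe at chr17:34406059-34406118 read 5532 and 203.0, a difference of -3.71. The H2-Ab1 probe printed above read 1487 and 30.4, a difference of -4.55 with an SD of 0.27. Thus all 4 probes lay between 11.9-fold and 23.4-fold lower, and the printed probe, the one farthest from the 3′ end, had the lowest value. Over 3339 transcripts with readable probes at least 300 bases apart, the 5′ probe differed from the 3′ probe by a median of 0.18, against -0.98 for H2-Ab1.

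H2-Aa, the alpha chain of I-A, had the 1 probe printed above, which read 1209 in Dock8+/- and 131.3 in Dock8-/-. It was 4.41-fold lower after scaling, a difference of -2.14 with an SD of 0.21. The 2 chains of one heterodimer therefore had differences of unequal size, -2.14 and -3.60 to -4.55, on probes of different position. H2-Eb1, the beta chain of I-E, read 13162 and 725.4 on its 1 probe at chr17:34453075-34453134. It was 8.69-fold lower, a difference of -3.12 with an SD of 0.20. Its partner H2-Ea was read at 3.85 and 3.61, not well above background in either sample. H2-Eb2, a further beta chain gene, was likewise not well above background in either sample.

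Genes of peptide loading were lower by similar amounts in the values as reported. Cd74, the invariant chain on chromosome 18, read 5647 in Dock8+/- and 579.0 in Dock8-/-, 4.67-fold lower with a difference of -2.22 and an SD of 0.20. H2-DMa, the alpha chain of the peptide editor H2-DM, read 327.6 and 34.2, 4.60-fold lower with a difference of -2.20 and an SD of 0.26. Under normexp the H2-DMa difference was -1.24. H2-DMb1, a beta chain of H2-DM, read 1752 and 168.4 on its bright probe at chr17:34297109-34297168, 4.99-fold lower with a difference of -2.32 and an SD of 0.21. These 3 genes and H2-Aa spanned 0.18 on the log2 scale, less than the error-model SD of 0.29 for the gap between the outer 2. Under normexp Cd74 was at -2.34, H2-DMb1 at -2.16 and H2-Aa at -1.91, so with H2-DMa these genes lay farther apart there.

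H2-DMb1 has a near-identical copy, H2-DMb2, so reads of the copies may mix on a probe, which was not tested. The only H2-DMb2 probe, at chr17:34284764-34284823, read 5.84 and 3.65 and was not well above background in either sample. The second H2-DMb1 probe read 4.67 and 4.41, also not well above background. That probe lies from -27 to 32 around the RefSeq start of H2-DMb1 and differs from the reference there at 2 bases, A17G and A46T, with the probe's base first and positions counted from its 5′ end.

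H2-O, the inhibitor of H2-DM, was near the limit of the arrays. H2-Ob, its beta chain, read 33.3 in Dock8+/- and 6.07 in Dock8-/- on its probe at chr17:34380481-34380849, well above background in Dock8+/- alone. A spot of the Dock8-/- array had to reach 16.1 to be readable at all, so no lower bound on its fold could be given. The other two H2-Ob probes were readable in neither sample. H2-Oa, the alpha chain, read 24.4 and 4.85, again above in Dock8+/- alone, with no bound.

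Ciita, the transactivator of class II genes, was readable on the Dock8+/- array only. Its probe at chr16:10526458-10526517 read 276.7 in Dock8+/- and 5.32 in Dock8-/-, which is not well above background. Against the lowest readable signal of that array, Ciita was at least 8.23-fold lower, a bound of -3.04 on the log2 scale that was -1.35 under normexp. The bound is not strict, since some brighter spots of that array were not readable either, among them a Cd68 probe at 21.2. A second probe, to another transcript record, read 34.4 and 14.6, above in Dock8+/- alone and at least 1.02-fold lower. The other two Ciita probes read 17.1 and 7.77 in Dock8+/- and 3.74 and 6.32 in Dock8-/-, not well above background in either sample. Among the 2546 genes of which this array alone gave a reading, 17.6% had a bound past 2-fold downward.

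The factors that bring CIITA to the X and Y boxes differed little, apart from one subunit of RFX. Of 10 genes of that list 9 were measured, with 1 past 2-fold downward, 0 upward and a median of -0.15. Rfxank, an RFX subunit, read 257.3 and 22.2 on 1 probe and was 5.56-fold lower, a difference of -2.47 that was -1.09 under normexp background correction. Rfxap, its partner subunit, differed by -0.15, and Rfx5 was readable in neither sample. The Y box factors Nfya, Nfyb and Nfyc differed by -0.10, -0.38 and -0.36, and Nfyb was at 0.13 with the mean of probes. Creb1 differed by -0.44 (-0.12 with the mean of probes), and the acetyltransferase genes Crebbp, Ep300 and Kat2b by 0.61, 0.60 and 0.48.

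Genes that carry the interferon-gamma signal to Ciita were on both sides of 0. Of 9 genes 8 were measured, with a median of 0.27 and 0 past 2-fold in either direction. Jak2, a kinase of the interferon-gamma receptor, differed by 0.75 (1.02 with the mean of probes) and Irf1, a transcription factor that it induces, by -0.52. The receptor chain Ifngr2 differed by -0.51 and Usf1 by 0.60 (0.13 with the mean of probes). Ifng itself was not well above background in either sample.

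Cd86, which gives the second signal to a T cell through CD28, was lower by less than the class II chains. Its brightest probe, at chr16:36603961-36604020, read 213.4 in Dock8+/- and 38.9 in Dock8-/-, 2.63-fold lower with a difference of -1.39 and an SD of 0.25. A probe at chr16:36660860-36660919 read 50.3 and 17.3 and one at chr16:36604506-36604565 read 40.9 and 3.38, both readable in Dock8+/- alone. Their bounds were 1.39-fold and 1.22-fold lower. The fourth Cd86 probe read 15.4 and 3.89, not well above background in either sample. Under normexp background correction the Cd86 difference was -0.66, short of 2-fold.

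Among other genes of costimulation, Cd48 came nearest to this size. Of 10 genes 6 were measured, with 1 past 2-fold downward, 0 upward and a median of -0.03, which was 0.19 under normexp. Cd48, a ligand of CD2, was 2.12-fold lower, with a difference of -1.08 that was -0.61 under normexp, beside -0.66 for Cd86 there. Cd80, the other ligand of CD28, differed by 0.37, Icosl by 0.24, Tnfsf9 by 0.12, Cd274, the PD-1 ligand, by -0.17 and Icam1 by -0.35. The dimmer probes of Icosl and Cd48 were readable in Dock8+/- alone and gave scaled differences of -2.32 and -2.69. Their Dock8-/- spots were not well above background, so these sizes are uncertain. The Icosl probes thus lay on both sides of 0. Cd40, Cd70, Pdcd1lg2 and Tnfsf4 were readable in neither sample.

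**Figure D2:**
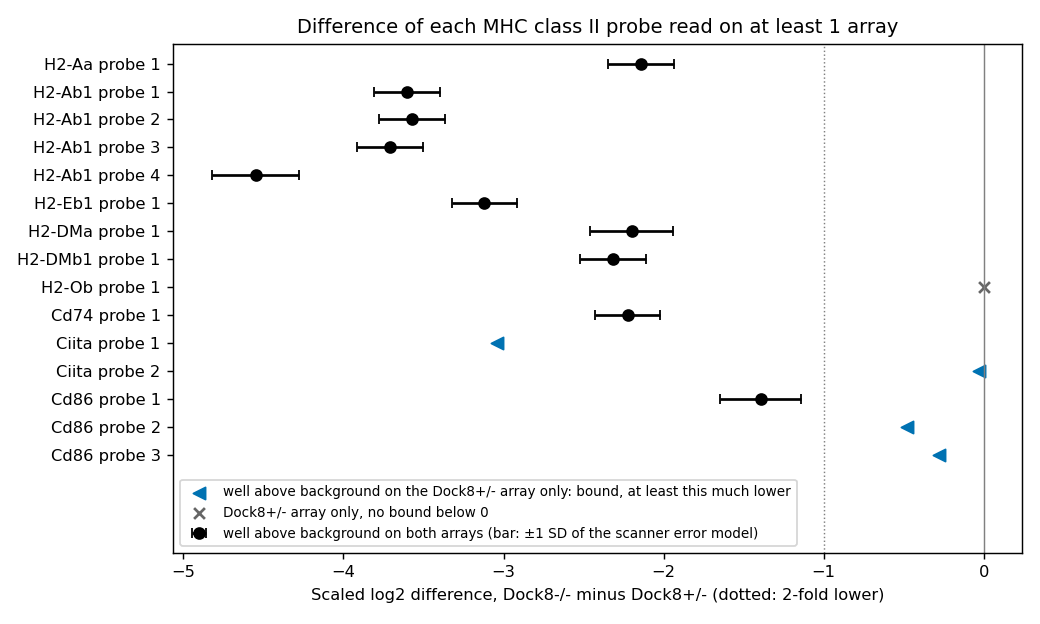
Scaled log2 difference, Dock8-/- minus Dock8+/-, of the 15 member probes well above background on at least 1 array. Black points with bars of 1 SD of the scanner error model are the 10 probes read on both arrays, from -4.55 (H2-Ab1) to -1.39 (Cd86), triangles are bounds, with Ciita at -3.04 or lower, and the cross is H2-Ob, which has no bound below 0.

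Counted by gene, 7 of the 10 members were measured, that is, well above background on both arrays on the brightest probe. All 7 were at least 2-fold lower in the Dock8-/- sample, against 7.03% of 18648 measured genes, and 48.2% of those genes were below 0. Their median log2 difference was -2.22, against 0.03 over all measured genes. Of genes whose scaled Dock8+/- signal lay within the range of the measured members, 8.61% of 11748 were at least 2-fold lower, and 8.07% of 12013 where the range was set by the mean of both signals. Of all measured genes 1.08% were at least 4-fold lower, a size reached by 6 of the 7, Cd86 being the exception, while under normexp H2-Aa (-1.91) and H2-DMa (-1.24) were short of it too. The other members were Ciita and H2-Ob, read on the Dock8+/- array only, and H2-DMb2, read on neither. Fewer cells that carry these messages and less message per cell cannot be told apart in bulk RNA.

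In order of size, H2-Ab1 ranked 17th from the lowest among 18648 genes, H2-Eb1 34th, H2-DMb1 114th, Cd74 135th, H2-DMa 145th, H2-Aa 156th and Cd86 629th. The gap of 0.48 between H2-Ab1 and H2-Eb1 compares with an error-model SD of 0.29. The gaps between H2-Eb1 and H2-DMb1 (0.80, SD 0.29) and between H2-Aa and Cd86 (0.75, SD 0.33) were larger than their SD, and the order within the middle 4 is not settled. Scaling to spike-in transcripts moved all genes by -1.85 on the log2 scale, and there the 7 members lay between -5.45 and -3.24. Differences are given relative to that shift, and on the spike-in scale the median of each gene list described here lies below 0. Over all genes 9.08% were at least 2-fold higher and 7.03% lower, a balance that loess turned to 6.98% and 8.01%. Normexp gave 3.77% and 4.64%, and the spike-in scale 0.311% and 87.3%.

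**Figure D3:**
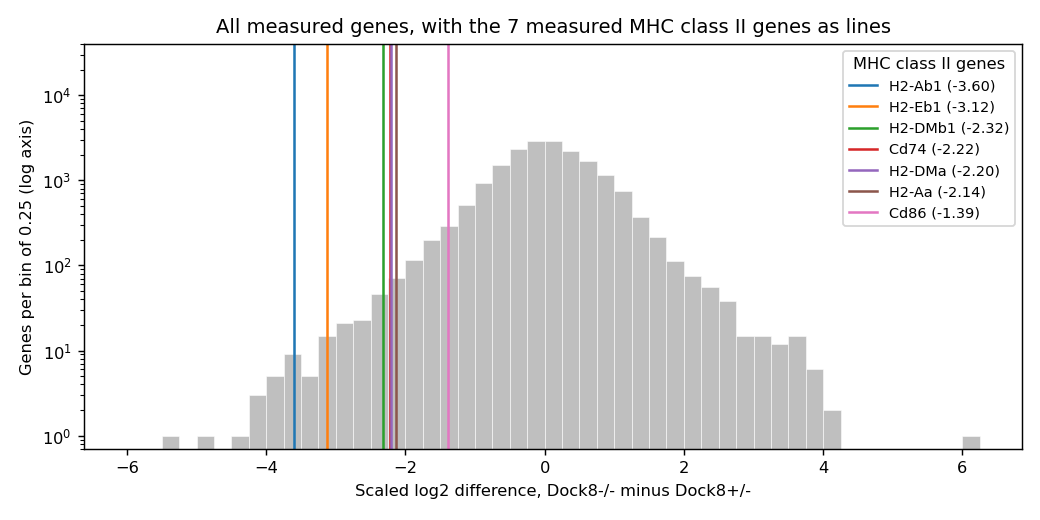
Number of the 18648 measured genes per bin of 0.25 of the scaled log2 difference, Dock8-/- minus Dock8+/-, on a log axis, with coloured lines at the 7 measured members. The lines run from -3.60 (H2-Ab1) to -1.39 (Cd86), left of the bulk of genes, whose median is 0.03.

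Enzymes that cut antigens and the invariant chain divided into lower ones and ones near 0. All 12 lysosomal genes were measured, with 4 past 2-fold downward, 0 upward and a median of -0.03. The lower ones were Ctsh (cathepsin H, -2.06), Ifi30 (the thiol reductase GILT, -1.82, or -1.19 under normexp), Ctsc (cathepsin C, -1.43) and Ctsz (cathepsin Z, -1.21). Readable probes of Ctsh ranged from -2.92 to 0.70. Ctss, encoding cathepsin S, the protease that trims the invariant chain in antigen-presenting cells, read 3563 and 1690 and differed by -0.01. Ctsl differed by 0.48 and Lgmn by 0.31. Of 9 genes of class II traffic and turnover, 0 passed 2-fold downward and 1 upward, and the median was -0.09. That gene was Marchf1, a ubiquitin ligase that removes class II and CD86 from the surface, at 1.08, which was 0.84 under normexp and -0.77 on the spike-in scale.

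Markers of cells that can carry class II differed beside the members, and their part in the result was not tested. Of 19 macrophage markers 18 were measured, 10 past 2-fold downward and 1 upward, and their median was -1.22. The median scaled log2 signal of that list was 1.82 in Dock8+/- and 0.62 in Dock8-/-, and none of its genes was unreadable on both arrays. Lyz2, encoding lysozyme, differed by -2.87, Adgre1, encoding F4/80, by -1.92, the complement gene C1qa by -1.85 and Aif1 by -1.79. Itgam, encoding CD11b, was the one upward at 1.03 (0.79 under normexp), and Mertk, a receptor for the uptake of dead cells, was at 0.74. Csf1r, the receptor for the macrophage growth factor, differed by -0.65 (-0.13 with the mean of probes) and the scavenger receptor Cd163 by -0.27. Fcgr1 was read on the Dock8+/- array only and was at least 4.40-fold lower. Ptprc, the leukocyte antigen CD45, gave 0.24 on its brightest probe, whereas its other readable probes went down to -1.85. By gene value H2-Ab1 and H2-Eb1 lay below each measured macrophage marker, as reported and under the 12 alternatives. For H2-Eb1 (-3.12) the margin was small, since the dimmer Lyz2 probe gave -3.15 and Fcgr1 -3.10 without a filter on dim probes. The other 5 measured members lay within the range of the macrophage list and below its median. Under normexp 6 of the 7 were below it.

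Dendritic cell markers were mostly dim, and mixed. Of 14 genes 7 were measured, 2 of them past 2-fold downward and 0 upward, and their median was -0.14. That median was 0.38 under normexp and -0.49 under loess. It was -1.11 without a filter on dim probes, where 7 of 14 passed 2-fold downward, and -1.11 with the positive and significant flag, where 5 did. Clec10a, a lectin of type 2 dendritic cells and macrophages, differed by -1.94 (-1.12 under normexp) and Irf8, a transcription factor of dendritic cells, by -1.24, which was -0.79 under normexp and -0.64 with the mean of probes. Flt3, a growth factor receptor of dendritic cells, differed by -0.98. Siglech differed by 0.85 and was far from dim, at an intensity of 37621 in Dock8+/- and 32527 in Dock8-/-. A further 5 markers were read on the Dock8+/- array only, among them Itgax, encoding CD11c, which read 50.7 and 7.95 and was at least 1.51-fold lower, and Cd209a, at least 2.01-fold lower. Xcr1 and Clec9a, markers of type 1 dendritic cells, were readable in neither sample.

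Of 9 B cell markers 3 were measured, with 1 past 2-fold downward, 1 upward and a median of -0.77. Under normexp the median was 0.11 and 0 passed 2-fold downward. Blnk differed by -1.31 (-0.98 under normexp) and Cr2 by -0.77 (0.11), while Ms4a1, encoding CD20, was at 2.17 (1.20 under normexp) on a dim probe whose partner probe read 72.1 and 3.76. Read on the Dock8+/- array only, Cd79b was at least 7.13-fold lower. Fcer2a was readable in Dock8-/- alone and was at least 3.23-fold higher, and 99% of the 515 genes so read had a bound past 2-fold upward. Of 11 genes of the T cell side 9 were on the array, 4 were measured and 3 were readable in Dock8+/- alone. The median was 0.41, but -0.00 without a filter on dim probes, where 3 of 9 passed 2-fold downward, and 0.17 with the positive and significant flag. Cd4 differed by 0.34 and Cd3e by 1.06 (0.82 under normexp).

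**Figure D4:**
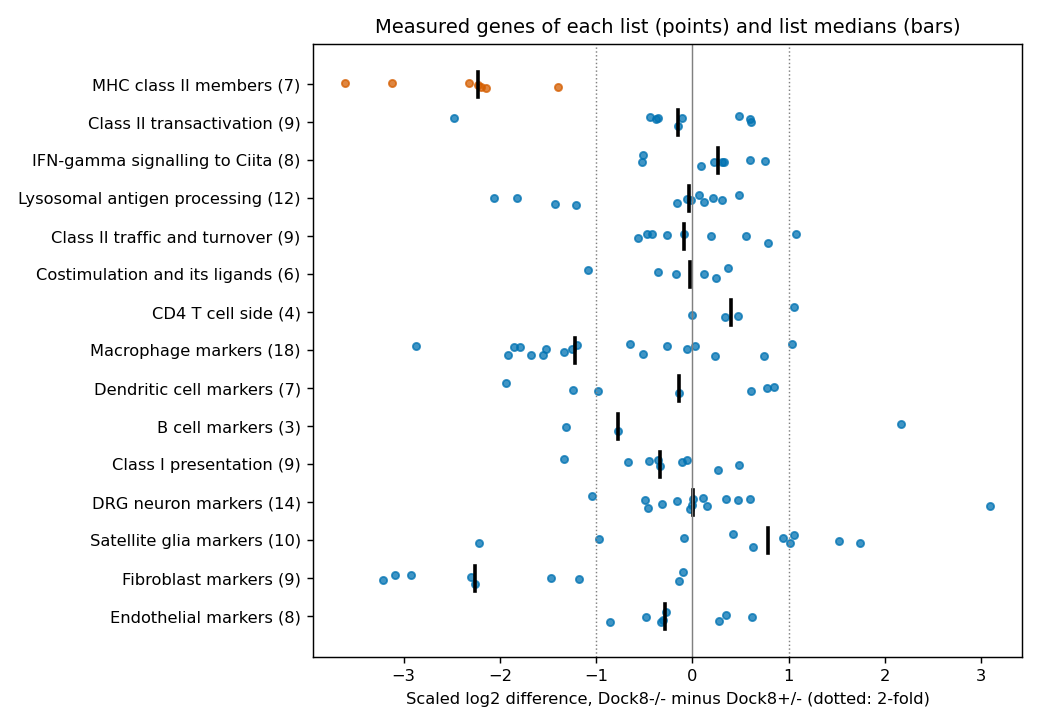
Scaled log2 difference, Dock8-/- minus Dock8+/-, of each measured gene (points) in 15 gene lists, with the number measured in brackets and the list median as a bar; dotted lines mark 2-fold. The members have a median of -2.22, fibroblast markers -2.26 and macrophage markers -1.22, while DRG neuron markers centre on 0.00.

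Lists of cells not known for class II did not share one direction. Fibroblast markers had a median of -2.26, with 7 of 9 measured genes at least 2-fold lower and Col3a1 at -3.21 on the brightest of probes that ranged up to -0.42. The median was -1.48 with the mean of a gene's probes. Satellite glia markers had a median of 0.79, with 4 of 10 at least 2-fold higher and 1 lower, counts that were 2 and 2 under normexp. The low one was Fabp7, a lipid-binding protein gene of these cells, at -2.21. Endothelial markers had a median of -0.29, which was 0.04 with the mean of probes, and neuronal markers of 0.00.

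Genes of class I presentation, which shows peptides to CD8 T cells, lay nearer 0. Of 9 measured genes 1 passed 2-fold downward and 0 upward, and the median was -0.33. The low one was Psmb9, an immunoproteasome subunit, at -1.34, and H2-D1 differed by -0.67, Nlrc5, the transactivator of class I, by 0.49 and B2m by -0.11. Psmb9, Psmb8, Tap1 and Tap2 lie among the class II genes on chromosome 17. That interval, in RefSeq order from BC051537 beside H2-Oa to H2-Ea, holds 7 genes on the array that are no members and encode no class II chain. Of these 5 were measured, 1 passed 2-fold downward and the median was -0.36. There Brd2 differed by 0.51, Tap1 by 0.27, Tap2 by -0.36 and Psmb8 by -0.45, so these 4 lay nearer 0 than each measured member, while Psmb9 at -1.34 lay close to Cd86 at -1.39.

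**Figure D5:**
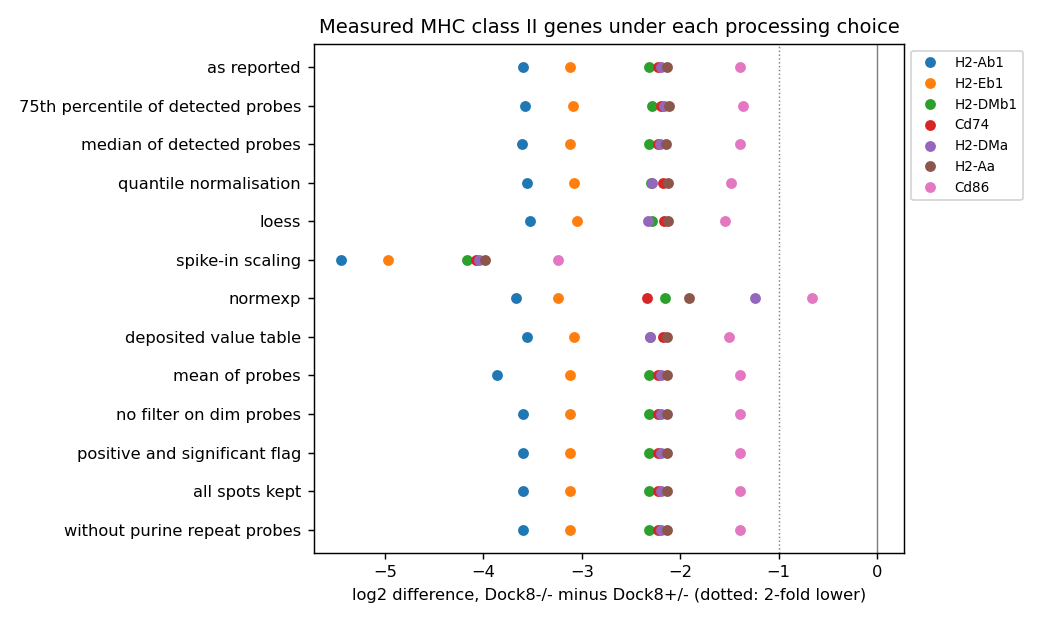
log2 difference, Dock8-/- minus Dock8+/-, of the 7 measured members (colours) as reported and under each of 12 other processing choices (rows); the dotted line marks 2-fold lower. Points lie below 0 in each row, the spike-in scale shifts them together by -1.85, and under normexp Cd86 (-0.66) lies right of the dotted line.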

How the data were processed

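Total RNA was isolated with Isogen and per the labels' protocols Cy3-labelled cRNA was amplified from it with Agilent's kit for low amounts. Each spot's linear intensity in the deposited scanner files comes from Agilent Feature Extraction, version 10.7.1.1 per the file headers and 9.5.1.1 per the submitters' processing notes. Per the file headers this intensity was detrended, and dim spots hold small positive surrogate values. The deposited value table holds quantile-normalised intensities (sorted columns equal for 98.9% of values at tolerance 0, medians 27.9) and served as an alternative, with scale and direction found from the scanner files (correlation of log2 values at least 0.999) and no centring seen.

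Non-uniform spots were left out (3 and 1), log2 intensity was averaged per probe, and each array's 75th percentile was subtracted. Probes were named by RefSeq accession (32990), symbol (10224) or older symbol (520) of GRCm38.p6, and 12867 kept the file's name. The brightest probe gave a gene's value. A gene read on 1 array has a bound, set against the lowest readable signal of the other array or the dim probe's own, whichever was higher. Some spots brighter than that lowest signal were not readable, so no bound is strict. Sizes were described at 2-fold. Members and lists were chosen with earlier results of these data known. Of the related lists, up to 4 genes with the largest differences were named, and all genes of the class II chain, transactivation and costimulation lists. Others were named after their values were seen. Alternatives used limma 3.58.1 (normexp offset 50, loess span 0.3). The calculation was tested on simulated data. The number of arrays limits the precision.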

Additional observations from a re-analysis of the deposited data

How the results depend on the processing

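With 1 array a genotype, there was no replicate to omit. No paired analysis was possible because the single arrays share no replicate numbers beyond 1 and nothing was tested. The omission of probes rich in purine repeats, chosen after seeing the data, could move no member, since 0 member probes hold such a repeat. The 7 measured members were below 0 in 84 of 84 gene values under the alternatives, and 83 of these were at least 2-fold lower, the exception being Cd86 under normexp (-0.66). All alternatives reprocess the same 2 arrays, so these values are no independent readings. Some choices could move a member little or not at all. A value counted as moved at a shift of 0.21, the median error-model SD. Of the 84, 73 stayed within this and 11 moved, 7 of them under spike-in scaling by its construction. H2-DMa was -1.24 and H2-Aa -1.91 under normexp, and H2-Ab1 -3.86 with the mean of probes. The members' median of -2.22 was -4.07 under spike-in scaling, and between -2.31 and -2.16 elsewhere. The count of 7 genes at least 2-fold lower was 6 under normexp and 6 at 3-fold. It was 9 of 10 without a filter on dim probes and 9 of 9 with the positive and significant flag. Both counts of 9 take in Ciita and H2-Ob, whose Dock8-/- spots were not well above background. The share of all genes called lower, 7.03%, was 4.64% under normexp, 87.3% under spike-in scaling, 16.9% at 1.5-fold and 2.27% at 3-fold. That share was 7.45% without the filter on dim probes and 8.51% with the positive and significant flag. The bound of Ciita, -3.04, was -1.35 under normexp and -3.41 under loess. Apart from spike-in scaling, thresholds and filters, which change values by construction, the cause was not tested. Dim probes such as those of H2-Ob, H2-DMb2 and Ciita limit what the Dock8-/- array can show.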

Other observations

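Readability followed probe position in Cd86. Of the 3 probes on its main transcript, the one at position 2473 was well above background on both arrays, the one at 1928 on the Dock8+/- array only and the one at 815 on neither. The reported Cd86 difference thus comes from the probe nearest the 3′ end.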
